A study of Homo sapiens with 12 samples.

Results

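RNA levels were compared between MDA-MB231 cells that stably express a short hairpin RNA against SRSF3 (sh_SRSF3) and MDA-MB231 cells with a control hairpin (sh_control). The libraries were chosen by their titles and by the matching names in the deposited count table: 2 sh_SRSF3 and 2 sh_control libraries, 4 of the 12 samples of the series. MDA-MB231 is an established human line of triple-negative breast cancer with a mesenchymal appearance. Hairpins were delivered by lentivirus and infected cells were selected. The labels give the same line for every group and no other treatment, so all groups share the viral infection and the selection. The column names of the count table name 1 hairpin against SRSF3, so an effect of SRSF3 loss and an effect particular to that hairpin cannot be told apart. The labels speak of duplicates without saying whether these were separate cultures. All p-values therefore reflect how far libraries of a group lie apart, a distance that may be technical. A further 2 libraries with a hairpin against TDP43 (sh_TDP43), an RNA-binding protein encoded by TARDBP, shared the fit and served as a second knockdown to set the first against. Genes were also described by their recovery in an RNA immunoprecipitation (RIP) of SRSF3 carrying a Flag tag, for which 1 RIP and 1 input library exist. Of 27745 genes in the table, 15026 had enough counts to be tested.

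SRSF3 is the smallest member of the SR family, proteins that carry an RNA recognition motif and a tail rich in arginine and serine. SR proteins bind exonic enhancers in nascent transcripts and recruit the splicing machinery. SRSF3 also takes part in the choice of poly(A) site and in mRNA export through the receptor NXF1. Several SR genes, SRSF3 among them, contain a poison exon whose inclusion sends their own mRNA to nonsense-mediated decay, the pathway that removes mRNAs with premature stop codons. A count per gene, as used here, sums all transcripts of a gene and does not show exon use.

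Counted reads numbered 35912547 and 38326930 in the sh_SRSF3 libraries, and 37486911 and 37987194 in the sh_control libraries. Genes with at least 1 count numbered 16902 and 17101 in sh_SRSF3, against 18416 and 17495 in sh_control. Levels are given as CPM, counts per 1000000 counted reads after scaling by the trimmed mean of M-values (TMM). Differences are log2 differences of sh_SRSF3 minus sh_control with their standard error (SE), each resting on 2 libraries a group. A gene was called where the adjusted p of the edgeR quasi-likelihood test was under 0.05, and "rose" and "fell" are written for called genes. In every called gene whose values are printed below, both sh_SRSF3 libraries lay on the same side of both sh_control libraries.

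SRSF3 itself (ENSG00000112081; GRCh37 chromosome 6, 36562130 to 36573377) was at 64.0 and 61.7 CPM in sh_SRSF3, against 459 and 404 CPM in sh_control. The groups were far apart (log2 difference -2.78, SE 0.10, adjusted p = 1.63e-10). In sh_TDP43 it stood between them, at 187 and 180.4 CPM. TARDBP, the target of that other hairpin, had a log2 difference of -0.48 in sh_SRSF3 against sh_control.

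The difference reached far into the transcriptome. Of the 15026 genes tested, 10045 were called (66.9%): 4881 rose (32.5%) and 5164 fell (34.4%). Whatever the call, both sh_SRSF3 libraries lay above both sh_control libraries in 40.7% of the genes and below them in 42.6%. The share that rose depended on scaling. With upper-quartile scaling, which moved the median of all genes by -0.15 on the log2 scale, 3959 rose and 6020 fell. The larger differences, with 4766 genes (31.7%) called at 2-fold or more, leaned towards falls: 1700 genes (11.3%) rose and 3066 genes (20.4%) fell at least 2-fold, and 161 rose and 590 fell at least 8-fold. Over all genes the median log2 difference was -0.03, with quartiles of -0.88 and 0.58. Level went with direction, in part by construction. Mean CPM was taken over the same 4 libraries, so a rise itself raises a gene's level and a fall lowers it. Level in sh_control alone was not used. In the quintile of genes with the lowest mean CPM the median was -0.51, with 13.1% called higher and 28.4% called lower. In the quintile with the highest mean CPM it was 0.25, with 51.3% called higher and 23.7% called lower. In the quintile just below the highest, 46.0% were called higher and 30.5% lower. As 66.9% of genes were called, a call on a single gene or a share of calls in a list has to be read against these shares.

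**Figure D1:**
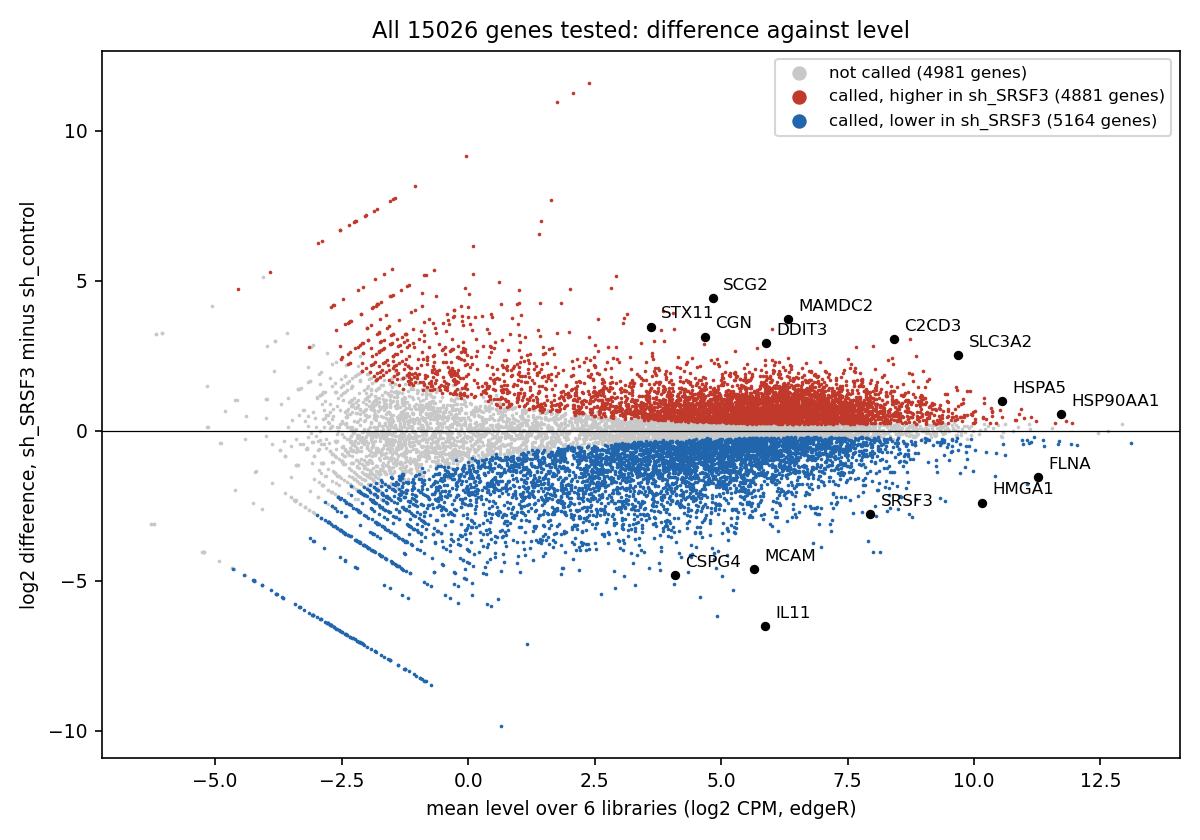
Log2 difference of sh_SRSF3 minus sh_control (y axis) against mean level (x axis, log2 CPM) for the 15026 genes tested, 1 point a gene, with called genes in red (higher, 4881) and blue (lower, 5164). Large falls outnumber large rises, and diagonal streaks at the left are genes with few or no counts in 1 group.

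Among genes at 20 CPM or more in the higher group, the largest falls included genes of the cell surface, the cytoskeleton and transcription. CSPG4, a proteoglycan of the cell surface, was at 1.80 and 0.554 CPM in sh_SRSF3, against 27.1 and 38.5 CPM in sh_control (log2 difference -4.82, SE 0.32, adjusted p = 1.75e-08). MCAM, an adhesion molecule of the immunoglobulin family, was at 5.26 and 2.55 CPM in sh_SRSF3, against 94.8 and 97.4 CPM in sh_control (log2 difference -4.63, SE 0.21). Both genes were more than an order of magnitude lower in each sh_SRSF3 library. CELSR1, an atypical cadherin of planar cell polarity, was at 0.991 and 0.942 CPM in sh_SRSF3, against 21.4 and 24.6 CPM in sh_control. ENDOD1, which encodes an endonuclease-domain protein, was at 2.46 and 2.38 CPM in sh_SRSF3, against 52.5 and 62.3 CPM in sh_control. The forkhead factor FOXQ1 was at 0.721 and 1.39 CPM in sh_SRSF3, against 28.9 and 24.6 CPM in sh_control. For these 3 genes the log2 differences were -4.57, -4.57 and -4.65. NES, the intermediate filament nestin, was at 3.61 and 2.16 CPM in sh_SRSF3, against 59.7 and 50.7 CPM in sh_control, and TNS1, the focal adhesion protein tensin, was at 1.98 and 1.77 CPM in sh_SRSF3, against 34 and 35.9 CPM in sh_control. Their log2 differences were -4.27 and -4.22.

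At least 8-fold rises were fewer than such falls. SCG2, a secretory granule protein, was at 49.3 and 59.5 CPM in sh_SRSF3, against 2.80 and 2.30 CPM in sh_control (log2 difference 4.42, SE 0.20, adjusted p = 5.78e-10). MAMDC2, a secreted protein with MAM domains, was at 146 and 152 CPM in sh_SRSF3, against 8.53 and 14.2 CPM in sh_control (log2 difference 3.71, SE 0.20, adjusted p = 2.49e-09). The vesicle fusion protein STX11 was at 20.1 and 24.5 CPM in sh_SRSF3, against 2.48 and 1.57 CPM in sh_control. EXPH5, an effector of the vesicle regulator RAB27, was at 114 and 120.2 CPM in sh_SRSF3, against 11.5 and 11.1 CPM in sh_control, a log2 difference of 3.38 (SE 0.11). In each of these genes the 2 libraries of a group lay close together compared with the distance between the groups. CGN, the tight junction protein cingulin, was at 44.4 and 47.5 CPM in sh_SRSF3, against 5.65 and 4.85 CPM in sh_control. FLG, the epidermal barrier protein filaggrin, was at 722 and 809 CPM in sh_SRSF3, against 87.5 and 95.6 CPM in sh_control. The G protein regulator RGS7 was at 31.2 and 30.1 CPM in sh_SRSF3, against 2.91 and 2.97 CPM in sh_control. Log2 differences were 3.13 for CGN, 3.06 for FLG and 3.38 for RGS7. The deposited FPKM of CGN, FLG and RGS7 was 0 in the Flag-SRSF3 input library, so their levels are uncertain, above all that of FLG. The cause of this discrepancy was not tested.

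In absolute terms the largest losses of CPM included abundant cytoskeletal and chromatin genes. FLNA, which crosslinks actin filaments, was at 1375 and 1104 CPM in sh_SRSF3, against 3921 and 3401 CPM in sh_control. ACTG1, cytoplasmic gamma-actin, was at 1049 and 832 CPM in sh_SRSF3, against 3516 and 3014 CPM in sh_control, with the reserve that reads shared with other actin copies are not counted. HMGA1, an architectural chromatin protein of high-grade tumours, was at 417 and 306 CPM in sh_SRSF3, against 1925 and 1912 CPM in sh_control. The log2 differences were -1.56, -1.80 and -2.41, with SE of 0.12, 0.14 and 0.13. PRSS23, a secreted serine protease, was at 234 and 218 CPM in sh_SRSF3, against 1052 and 1249.7 CPM in sh_control (log2 difference -2.35). The largest gains included genes of chaperones, the nucleolus and the membrane. HSP90AA1, the inducible cytosolic chaperone, was at 4086 and 3852 CPM in sh_SRSF3, against 2974 and 2491 CPM in sh_control (log2 difference 0.54). NPM1, the nucleolar phosphoprotein, was at 2553 and 2315 CPM in sh_SRSF3, against 1626 and 1324 CPM in sh_control (log2 difference 0.72). EZR, which links actin to the membrane, was at 1408 and 1361 CPM in sh_SRSF3, against 592 and 526 CPM in sh_control (log2 difference 1.31). F3, tissue factor, which starts the coagulation cascade, was at 1712 and 1491 CPM in sh_SRSF3, against 789 and 736 CPM in sh_control (log2 difference 1.07). NPM1, HSP90AA1, LDHA and the keratins KRT8 and KRT18, named below, have processed pseudogene copies, so their counts are uncertain.

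Some genes had counts in 1 group only or nearly so. Of the tested genes with a symbol, 337 had 3 counts or fewer in both sh_SRSF3 libraries and 121 in both sh_control libraries. These numbers set no condition on the other group or on the call, so they do not count genes lost or gained. CD1D, a lipid antigen presenting molecule, had 204 and 270 counts in sh_SRSF3 and 0 counts in both sh_control libraries. Against a floor of 3 counts per library it was at least 86.0-fold higher. SLC26A3, a chloride and bicarbonate exchanger of the colon, had 156 and 222 counts in sh_SRSF3 and 3 and 0 counts in sh_control, a ratio of 137.1 with a 95% counting interval of 46.6 to 668. Other genes were near 0 in sh_SRSF3 instead. TMEM121 had 0 counts in both sh_SRSF3 libraries and 130 and 106 counts in sh_control, and was at least 36.2-fold lower. F2RL3, the thrombin receptor PAR4, had 0 and 2 counts in sh_SRSF3 and 142 and 194 counts in sh_control, a ratio of 154.4 (interval 42.4 to 1280). UCN2, a peptide of the corticotropin-releasing factor family, had 1 and 2 counts in sh_SRSF3 and 93 and 110 counts in sh_control. TERC, the RNA template of telomerase, had 3 and 0 counts in sh_SRSF3 and 104 and 52 counts in sh_control. These intervals cover counting error only.

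SR genes split in both directions. All 13 tested members (of 14 listed) were called, 6 higher and 7 lower, with a median log2 difference of -0.28. SRSF2, which like SRSF3 recognises exonic enhancers, was at 35.5 and 28.8 CPM in sh_SRSF3, against 138 and 119.7 CPM in sh_control (log2 difference -2.0, SE 0.12, adjusted p = 5.14e-09). SRSF1, the founding member of the family, was at 156 and 138 CPM in sh_SRSF3, against 310.3 and 269 CPM in sh_control (log2 difference -0.98, SE 0.10, adjusted p = 1.45e-06). After SRSF3 these were the largest falls of the family, and the groups did not overlap. SRSF8 and SRSF4 fell as well, by 0.87 and 0.67 on the log2 scale. SRSF7, the closest relative of SRSF3 in the family, was at 124 and 119 CPM in sh_SRSF3, against 164 and 145 CPM in sh_control, a difference of -0.34. SRSF10, a splicing factor controlled by phosphorylation, was at 167 and 155 CPM in sh_SRSF3, against 86.2 and 83.0 CPM in sh_control (log2 difference 0.93, SE 0.09, adjusted p = 9.92e-07). TRA2A, SRSF5, SRSF9 and SRSF11 rose by 0.51, 0.46, 0.45 and 0.44. The calls on the remaining members, SRSF6 and TRA2B, did not hold under every alternative: without the second sh_SRSF3 library the adjusted p was 0.0972 for SRSF6, and with upper-quartile scaling it was 0.382 for TRA2B.

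Splicing regulators outside the SR family rose more often than they fell: 12 of 19 tested (of 22 listed) were called higher and 4 lower. Their median was 0.58, and 63.2% rose, against 32.5% of all genes tested and 51.3% in the quintile of highest level. RBM24, an RNA-binding protein of muscle splicing programmes, was at 76.5 and 64.5 CPM in sh_SRSF3, against 25.4 and 18.0 CPM in sh_control (log2 difference 1.70, SE 0.16, adjusted p = 3.48e-07). MBNL2, a muscleblind protein, was at 177 and 182 CPM in sh_SRSF3, against 59.7 and 58.7 CPM in sh_control (log2 difference 1.6, SE 0.10, adjusted p = 6.84e-09), while its paralog MBNL3 was at 9.22 and 8.03 CPM in sh_SRSF3, against 18.5 and 17.0 CPM in sh_control (log2 difference -1.04). RBFOX2, which binds GCAUG elements beside alternative exons, was at 363 and 415 CPM in sh_SRSF3, against 203 and 220.3 CPM in sh_control, a difference of 0.88. CELF1, TIA1 and TIAL1 rose by 0.79, 0.68 and 0.58. The largest fall was in KHDRBS3, a relative of Sam68, at 6.01 and 3.60 CPM in sh_SRSF3, against 28 and 19.2 CPM in sh_control (log2 difference -2.30, SE 0.23, adjusted p = 6.81e-07). PTBP1 fell by 2.22 and PTBP2, the paralog that PTBP1 represses by exon skipping in other cells, rose by 1.87. MBNL1 was at 215 and 190.5 CPM in sh_SRSF3, against 227 and 249 CPM in sh_control, and narrowly missed a call (adjusted p = 0.0522). It was called lower under several alternatives, among them upper-quartile scaling and the 4 libraries alone.

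Genes of mRNA export and 3' end processing were called higher in 15 of 27 (of 28 listed) and lower in 5, with a median of 0.33. The share called higher, 55.6%, compares with 32.5% of all genes tested and 51.3% in the quintile of highest level. DDX39A, an RNA helicase that loads export factors, was at 706 and 664 CPM in sh_SRSF3, against 208 and 166 CPM in sh_control (log2 difference 1.87, SE 0.11, adjusted p = 5.98e-09). CPSF2, a subunit of the complex that recognises the poly(A) signal, was at 34.8 and 35.6 CPM in sh_SRSF3, against 146 and 143 CPM in sh_control (log2 difference -2.04, SE 0.09, adjusted p = 7.89e-10). In both genes the gap between groups was many times the distance between libraries of a group. NXF1, the receptor that carries mRNA through the nuclear pore and that SRSF3 is known to bind, was at 173 and 181 CPM in sh_SRSF3, against 88.6 and 87.0 CPM in sh_control (log2 difference 1.01, SE 0.09, adjusted p = 2.51e-07). CSTF3, a cleavage stimulation subunit, was at 123 and 129 CPM in sh_SRSF3, against 58.8 and 53.6 CPM in sh_control (log2 difference 1.17). NUDT21, the cleavage factor that favours distal poly(A) sites, was at 71.4 and 67.2 CPM in sh_SRSF3, against 135 and 139 CPM in sh_control (log2 difference -0.98). ALYREF and THOC2 of the export complex TREX rose by 0.63 and 0.69. The paralog of DDX39A, DDX39B, was at 124 and 119 CPM in sh_SRSF3, against 108 and 103 CPM in sh_control, and narrowly missed a call (adjusted p = 0.0523). It was called higher with RLE scaling, DESeq2 and a replicate block. The count of 5 lower members was 3 without the second sh_SRSF3 library and 3 without the first sh_control library.

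Of 18 genes of nonsense-mediated decay and the exon junction complex, the protein mark left at spliced junctions, 12 rose and 2 fell (median 0.42). Their share that rose was 66.7%, against 32.5% of all genes tested and 51.3% in the quintile of highest level. UPF3B, which bridges the junction complex and the decay machinery, was at 108 and 112 CPM in sh_SRSF3, against 45.6 and 35.4 CPM in sh_control (log2 difference 1.44, SE 0.12, adjusted p = 9.62e-08). SMG1, the kinase that phosphorylates UPF1, was at 371 and 372 CPM in sh_SRSF3, against 143 and 176 CPM in sh_control (log2 difference 1.22, SE 0.11, adjusted p = 3.28e-07). RNPS1, an activator of splicing that joins the complex, was at 222 and 207 CPM in sh_SRSF3, against 112 and 97.2 CPM in sh_control (log2 difference 1.04). UPF1 and UPF2 rose by 0.55 and 0.53. CASC3, a core junction component, was among the falls, at 28.1 and 27.5 CPM in sh_SRSF3, against 123 and 124 CPM in sh_control (log2 difference -2.15, SE 0.10, adjusted p = 9.6e-10). Of 7 genes reported elsewhere as SRSF3 targets, 3 rose and 3 fell (42.9% each, against 32.5% and 34.4% of all genes tested). MAP4K4, a kinase of cell migration, was at 85.8 and 86.4 CPM in sh_SRSF3, against 290.4 and 427 CPM in sh_control (log2 difference -2.06, SE 0.15, adjusted p = 4.98e-08), and the insulin receptor INSR was at 23.1 and 19.6 CPM in sh_SRSF3, against 41.8 and 36.3 CPM in sh_control (log2 difference -0.87). The factor FOXM1, at 187 and 174 CPM in sh_SRSF3, against 190.2 and 189.7 CPM in sh_control, was not called.

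**Figure D2:**
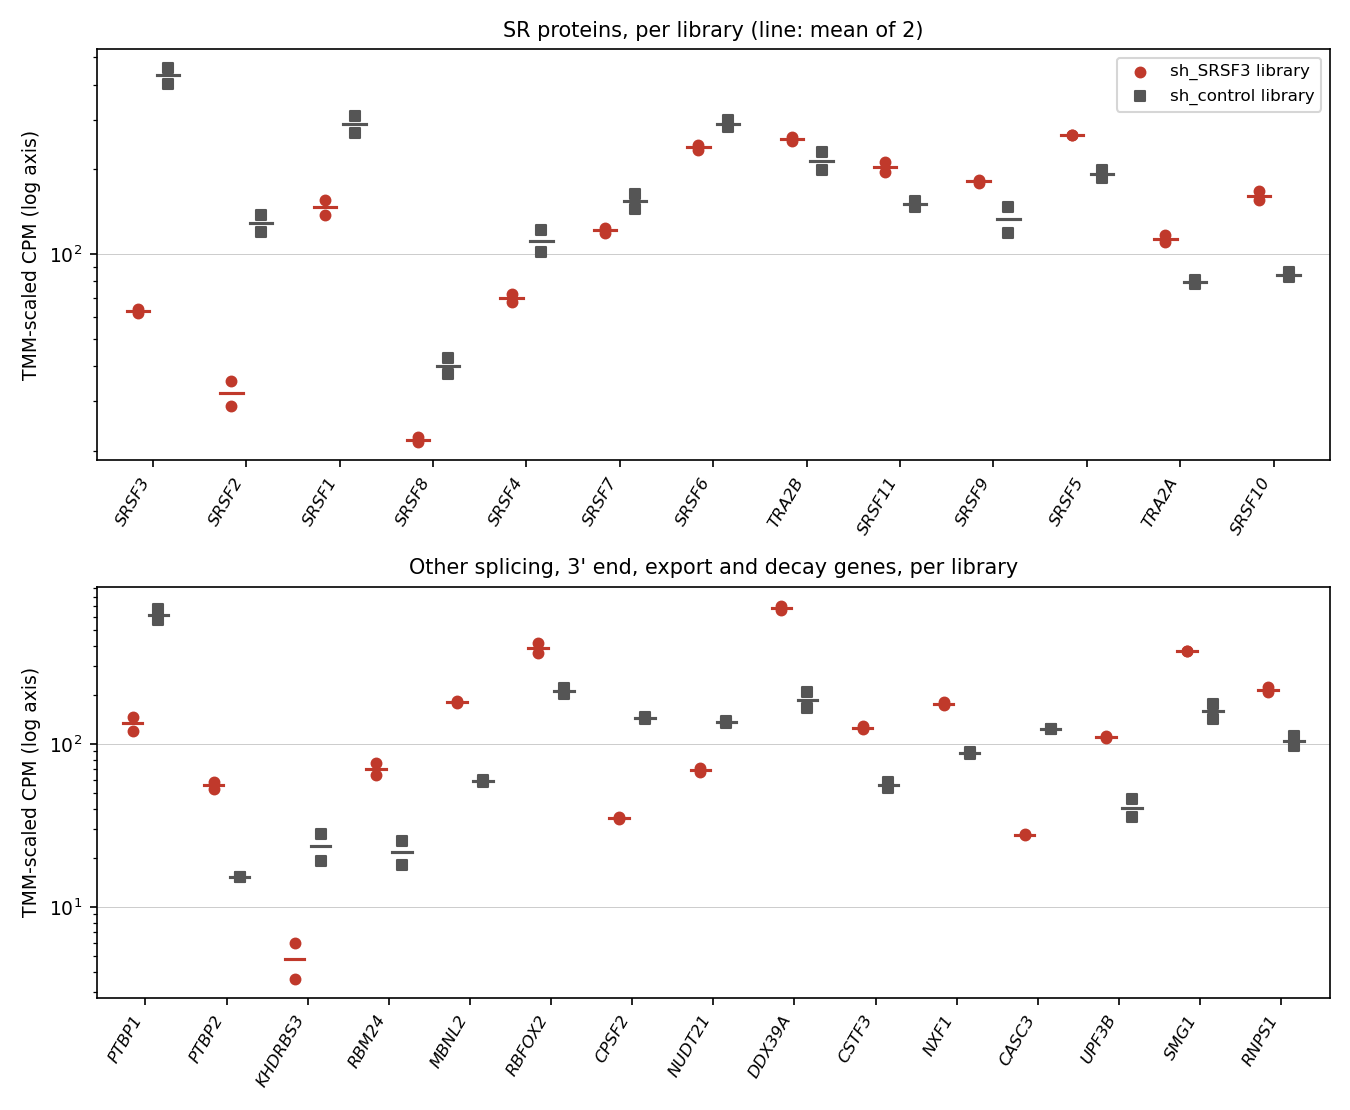
TMM-scaled CPM (log axis) of each sh_SRSF3 library (red circles) and each sh_control library (grey squares), with short lines at the mean of 2, for SR genes (top) and for other splicing, 3' end, export and decay genes (bottom). SRSF3, SRSF2, PTBP1, KHDRBS3, CPSF2 and CASC3 lie well below sh_control, while SRSF10, PTBP2, RBM24, MBNL2, DDX39A and UPF3B lie above it.

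Interferon-stimulated genes encode sensors and effectors of antiviral defence, and many of them are switched on by a complex with STAT2 and IRF9 that binds a repeat of GAAA. In this list 34 of 38 genes fell and 0 rose, with a median log2 difference of -1.80, the lowest of the lists with more than 10 members tested. The summed CPM of the list was 1318 and 1474 in sh_SRSF3, against 3123 and 5044 in sh_control. The control libraries thus differed from each other in this list far more than the sh_SRSF3 libraries did. Without the second sh_control library 31 members were still called lower (median -1.36), and without the first 36 were (median -2.18).

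DHX58, a regulator of RIG-I sensing, was at 1.98 and 2.02 CPM in sh_SRSF3, against 25.5 and 42.1 CPM in sh_control (log2 difference -4.08, SE 0.27, adjusted p = 1.35e-08). XAF1, an interferon-induced antagonist of the apoptosis inhibitor XIAP, was at 1.14 and 2.11 CPM in sh_SRSF3, against 14.9 and 38.1 CPM in sh_control (log2 difference -4.02, SE 0.41, adjusted p = 9.1e-07). The helicase DDX60 was at 12.4 and 19.2 CPM in sh_SRSF3, against 167 and 302 CPM in sh_control (log2 difference -3.89, SE 0.26, adjusted p = 1.9e-08). In all 3 genes the higher sh_SRSF3 library lay more than 5-fold below the lower sh_control library. OAS1, OAS2 and OASL of the oligoadenylate synthetase family had log2 differences of -3.07, -2.96 and -2.79, and OAS1 differed more than 4-fold between the control libraries, at 0.901 and 1.55 CPM in sh_SRSF3, against 3.87 and 16.9 CPM in sh_control. The sensors IFIH1 and DDX58, which detect double-stranded RNA, fell by 2.17 and 1.68. ISG15, a ubiquitin-like modifier, was at 136 and 154 CPM in sh_SRSF3, against 407 and 523 CPM in sh_control (log2 difference -1.68), and MX1, a GTPase that blocks viral replication, was at 5.56 and 6.76 CPM in sh_SRSF3, against 15.3 and 46.7 CPM in sh_control (log2 difference -2.33). Factors that switch these genes on differed in their calls. IRF1 was at 10.2 and 12 CPM in sh_SRSF3, against 61.3 and 74.2 CPM in sh_control (log2 difference -2.61, SE 0.13, adjusted p = 1.74e-09), and IRF7 fell by 0.67, a call that was lost without the second sh_control library (adjusted p = 0.0532). Among the 4 members that were not called, STAT2 was at 78.7 and 79.6 CPM in sh_SRSF3, against 70.8 and 111 CPM in sh_control and IRF9 at 0.871 and 1.25 CPM in sh_SRSF3, against 0.430 and 1.75 CPM in sh_control. IFITM3, a membrane restriction factor, was at 199 and 234 CPM in sh_SRSF3, against 225 and 299.7 CPM in sh_control.

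Of 16 genes of antigen presentation, 12 fell and 1 rose, with a median of -0.90. TAP2, one half-transporter of the peptide pump, was at 16.5 and 12.8 CPM in sh_SRSF3, against 94.1 and 106 CPM in sh_control (log2 difference -2.77, SE 0.13, adjusted p = 7.89e-10), and its partner TAP1 at 49.7 and 56.2 CPM in sh_SRSF3, against 76.2 and 97.2 CPM in sh_control (log2 difference -0.71). The peptide trimming enzyme ERAP2 was at 2.73 and 3.43 CPM in sh_SRSF3, against 15.5 and 22.7 CPM in sh_control (log2 difference -2.63). Immunoproteasome subunits PSMB10, PSMB9 and PSMB8 fell by 2.11, 1.69 and 1.18. NLRC5, the transactivator of class I genes, was at 8.95 and 8.86 CPM in sh_SRSF3, against 32.2 and 38.2 CPM in sh_control (log2 difference -1.98, SE 0.13, adjusted p = 1.77e-08). B2M, the invariant chain of the class I molecule, was at 786 and 901 CPM in sh_SRSF3, against 749 and 992 CPM in sh_control, and was not called.

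The repeat of GAAA, any 2 bases and GAAA, searched on both strands in the window from 250 bases before to 50 bases after each annotated start, was present in 313 of 10714 promoters of tested genes (2.92%; RefSeq, GRCh38.p14). It was present in 18 of the 27 interferon promoters with a window, 17 of them of genes that fell, and in 7 of the 13 promoters of antigen presentation genes, 6 of them of genes that fell. Stretches of 4 promoters are shown with the repeat, or its reverse complement, in capitals, to set genes that fell beside B2M, which carries 2 overlapping copies and was not called. All are written 5' to 3' on the strand of the gene: IFIT3 on the plus strand (chr10:89327821-89327904), OAS3 on the plus strand (chr12:112938311-112938360), TAP2 on the minus strand (chr6:32838768-32838817) and B2M on the plus strand (chr15:44711353-44711408).
IFIT3: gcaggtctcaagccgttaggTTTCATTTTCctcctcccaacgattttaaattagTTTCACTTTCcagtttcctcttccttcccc
OAS3: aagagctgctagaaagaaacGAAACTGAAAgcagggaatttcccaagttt
TAP2: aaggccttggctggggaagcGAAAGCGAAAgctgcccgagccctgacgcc
B2M: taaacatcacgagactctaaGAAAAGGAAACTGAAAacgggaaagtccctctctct
IFIT3 was at 107 and 105 CPM in sh_SRSF3, against 550.3 and 916 CPM in sh_control, OAS3 at 6.25 and 8.59 CPM in sh_SRSF3, against 47.6 and 90.8 CPM in sh_control. A match is a description of the letters and does not show that a factor was bound. Over all promoters, the repeat was in 3.53% of genes that fell, 2.49% of genes that rose and 2.73% of genes not called.

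Genes of NF-kB feedback, cytokines and chemokines also fell: 16 of 24 tested (of 26 listed) were lower and 3 higher, with a median of -1.12. IL6, an inflammatory cytokine, was at 6.19 and 8.70 CPM in sh_SRSF3, against 47.2 and 85.5 CPM in sh_control (log2 difference -3.15, SE 0.25, adjusted p = 7.66e-08). CXCL8, which attracts neutrophils, was at 2.79 and 3.77 CPM in sh_SRSF3, against 10.2 and 25.4 CPM in sh_control (log2 difference -2.44, SE 0.35, adjusted p = 2.4e-05), and CSF2, a granulocyte and macrophage growth factor, was at 3.48 and 4.54 CPM in sh_SRSF3, against 15.9 and 26.6 CPM in sh_control (log2 difference -2.40, SE 0.23, adjusted p = 5.67e-07). LIF, a cytokine of the IL6 family, was at 33.8 and 36.5 CPM in sh_SRSF3, against 98.9 and 96.5 CPM in sh_control (log2 difference -1.47). The second sh_control library was the higher of the control pair for IL6, CXCL8 and CSF2, as it was for the summed interferon list. NFKBIA, the inhibitor that NF-kB induces, was at 20.8 and 26.0 CPM in sh_SRSF3, against 41.2 and 60.9 CPM in sh_control (log2 difference -1.12), whereas the subunit gene NFKB1 rose by 0.44 and NFKB2, at 91.2 and 115 CPM in sh_SRSF3, against 80.6 and 108 CPM in sh_control, was not called. NFKB1 was the only one of the 3 higher members whose call held without the first sh_control library; without it, the adjusted p was 0.202 for BIRC3 and 0.0951 for TNFAIP3.

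**Figure D3:**
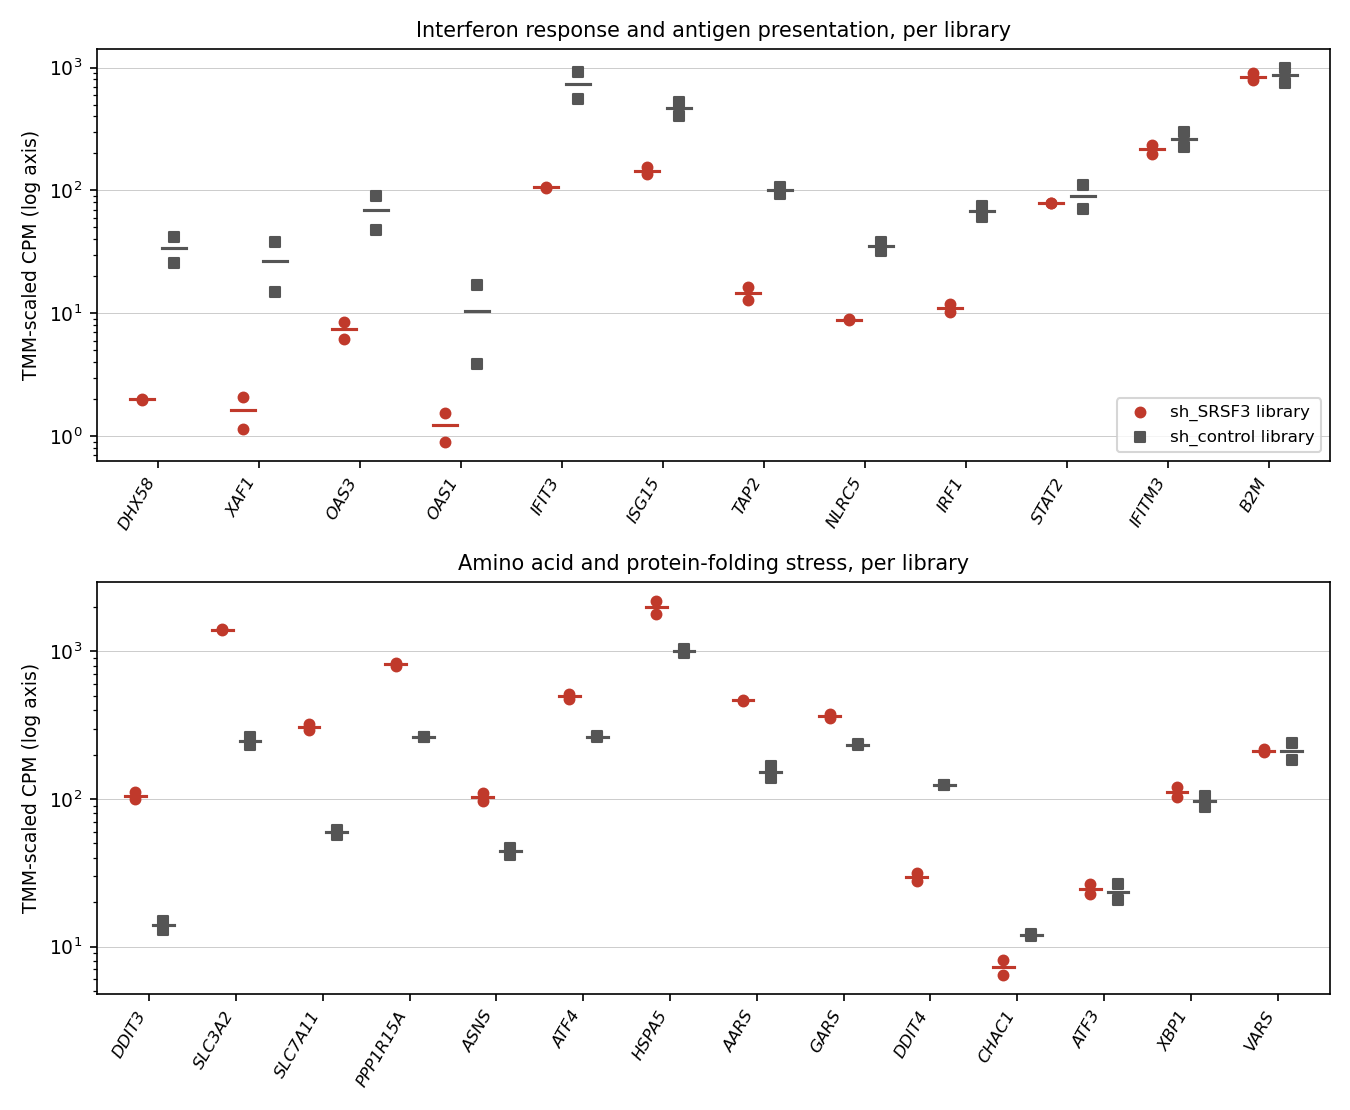
TMM-scaled CPM (log axis) per library, sh_SRSF3 as red circles and sh_control as grey squares, with short lines at the mean of 2. Interferon and antigen presentation genes from DHX58 to IRF1 lie below sh_control while STAT2, IFITM3 and B2M overlap it (top); stress genes from DDIT3 to GARS lie above it and DDIT4 and CHAC1 below (bottom).

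Genes by which cells degrade and hold the matrix fell in large part. In the list of the urokinase system, metalloproteases and inhibitors 12 of 18 (of 22 listed) fell and 3 rose, with a median of -1.23. PLAT, tissue plasminogen activator, was at 53.8 and 63.5 CPM in sh_SRSF3, against 302 and 468 CPM in sh_control (log2 difference -2.71, SE 0.17, adjusted p = 7.75e-09). ADAM9 was at 179 and 174 CPM in sh_SRSF3, against 438 and 401 CPM in sh_control (log2 difference -1.25), while the sheddases ADAM17 and ADAM10, which cleave growth factors and Notch from the surface, rose by 1.42 and 0.63. TIMP2 was at 592 and 562 CPM in sh_SRSF3, against 557 and 619 CPM in sh_control, and was not called. Among 23 integrin and focal adhesion genes, 15 fell and 2 rose (median -0.73). VCL, vinculin, which couples integrins to actin, was at 109 and 94.1 CPM in sh_SRSF3, against 591 and 643 CPM in sh_control (log2 difference -2.60, SE 0.11, adjusted p = 4.43e-10). The collagen receptor subunit ITGA2 was at 39.8 and 51.4 CPM in sh_SRSF3, against 189 and 298 CPM in sh_control (log2 difference -2.42, SE 0.18, adjusted p = 6.09e-08), and the laminin receptor subunit ITGA6 at 176 and 161 CPM in sh_SRSF3, against 342 and 377 CPM in sh_control (log2 difference -1.09). LAMA3, which encodes a laminin chain, fell by 1.57. ITGB1, the common partner of these receptors, was at 995 and 1016 CPM in sh_SRSF3, against 1056 and 994 CPM in sh_control, and was not called.

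Of 22 matrix and proteoglycan genes tested (of 24 listed), 15 fell and 4 rose (median -1.15). Collagen VI fell in all 3 chains measured: COL6A1 was at 67.7 and 72.7 CPM in sh_SRSF3, against 223 and 276 CPM in sh_control (log2 difference -1.83, SE 0.13, adjusted p = 2.44e-08), and COL6A2 and COL6A3 fell by 1.59 and 2.64. COL13A1, a transmembrane collagen of cell junctions, was at 61.8 and 56.2 CPM in sh_SRSF3, against 298 and 249 CPM in sh_control (log2 difference -2.21). HSPG2, the basement membrane proteoglycan perlecan, was at 37.3 and 41.6 CPM in sh_SRSF3, against 148 and 187 CPM in sh_control (log2 difference -2.08), and FN1, fibronectin, at 146 and 136 CPM in sh_SRSF3, against 263 and 355 CPM in sh_control (log2 difference -1.13). Against this direction, THBS1, the abundant thrombospondin, was at 2659 and 2489.9 CPM in sh_SRSF3, against 1887 and 1852 CPM in sh_control (log2 difference 0.46, SE 0.10, adjusted p = 0.00117).

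In the Notch pathway, in which a ligand on one cell releases the receptor's intracellular domain in its neighbour, 15 of 21 genes (of 23 listed) fell and 4 rose (median -1.0). Among ligands, JAG1 was at 56.8 and 53.4 CPM in sh_SRSF3, against 213 and 269 CPM in sh_control (log2 difference -2.13, SE 0.13, adjusted p = 6.59e-09). DLL1, at 0 and 0.0554 CPM in sh_SRSF3 against 0.753 and 0.417 CPM in sh_control, and DLL4, at 0 CPM in both sh_SRSF3 libraries against 0.215 and 0.470 CPM in sh_control, were near the limit of detection in every library. Among receptors, NOTCH2 was at 205 and 201 CPM in sh_SRSF3, against 363 and 451 CPM in sh_control (log2 difference -1.0), and NOTCH3, low in this line, was at 2.40 and 2.47 CPM in sh_SRSF3, against 0.915 and 0.783 CPM in sh_control (log2 difference 1.52). Among targets, NRARP, a feedback inhibitor, was at 0 and 0.111 CPM in sh_SRSF3, against 2.29 and 1.41 CPM in sh_control (log2 difference -4.93, SE 0.75, adjusted p = 4.74e-05). RBPJ, the DNA-binding partner of the receptor domain, was at 173 and 153 CPM in sh_SRSF3, against 215 and 224 CPM in sh_control (log2 difference -0.43), and NUMB, an inhibitor, was at 112 and 115 CPM in sh_SRSF3, against 87.9 and 106 CPM in sh_control, and was not called.

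Epithelial genes did not move as a block: 12 of 21 tested (of 24 listed) fell and 6 rose (median -0.38). The transcription factor EHF was at 18.1 and 17.7 CPM in sh_SRSF3, against 66.5 and 83.8 CPM in sh_control (log2 difference -2.07, SE 0.14, adjusted p = 1.47e-08), and CLDN4, a tight junction claudin, at 28.3 and 34.3 CPM in sh_SRSF3, against 127 and 147 CPM in sh_control (log2 difference -2.12, SE 0.12, adjusted p = 2.8e-09). The junction scaffold TJP1 was at 242 and 238 CPM in sh_SRSF3, against 119 and 133 CPM in sh_control (log2 difference 0.93, SE 0.09, adjusted p = 7.66e-07), and OCLN, occludin, at 18.3 and 21 CPM in sh_SRSF3, against 9.74 and 9.97 CPM in sh_control (log2 difference 0.99). Simple epithelial keratins KRT8 and KRT18 rose by 0.45 and 0.46, while KRT7 fell by 0.38. EPCAM, an adhesion molecule, was at 3.64 and 4.60 CPM in sh_SRSF3, against 8.10 and 4.46 CPM in sh_control, and was not called. In the mesenchymal list 11 of 16 (of 18 listed) fell and 2 rose (median -0.56). The repressors of epithelial genes ZEB1 and SNAI2 were at 48.3 and 52.8 CPM in sh_SRSF3, against 74.3 and 78.3 CPM in sh_control, and at 16.8 and 16.3 CPM in sh_SRSF3, against 28.5 and 27.6 CPM in sh_control, and fell by 0.59 and 0.76. S100A4, a marker of motile cells, was at 119.9 and 133 CPM in sh_SRSF3, against 193 and 252 CPM in sh_control (log2 difference -0.81). Against this direction CDH2, which encodes N-cadherin, was at 15.9 and 17.3 CPM in sh_SRSF3, against 1.32 and 0.913 CPM in sh_control (log2 difference 3.89, SE 0.23, adjusted p = 5.69e-09), the largest difference of the list. AXL, a receptor kinase of the mesenchymal state, was at 1439 and 1342 CPM in sh_SRSF3, against 1731 and 1499 CPM in sh_control, and was not called.

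Mucins form the protective gel and coat of epithelia, and receptor-type tyrosine phosphatases act on signalling and adhesion at the membrane. Of 6 mucins tested (of 11 listed), 4 fell and 0 rose. MUC4, a membrane mucin that binds ERBB2, was at 1.5 and 1.94 CPM in sh_SRSF3, against 12.3 and 17.5 CPM in sh_control (log2 difference -3.11, SE 0.22, adjusted p = 2.49e-08), MUC5B at 0.391 and 0.360 CPM in sh_SRSF3, against 1.59 and 3.60 CPM in sh_control (log2 difference -2.78) and MUC1 at 6.10 and 6.43 CPM in sh_SRSF3, against 10.3 and 16.3 CPM in sh_control (log2 difference -1.09). MUC6 was at 7.33 and 6.73 CPM in sh_SRSF3, against 6.0 and 3.26 CPM in sh_control, and was not called. Of 16 phosphatases (of 20 listed), 8 fell and 4 rose. PTPRJ was at 25.1 and 26.1 CPM in sh_SRSF3, against 203 and 237 CPM in sh_control (log2 difference -3.10, SE 0.11, adjusted p = 1.42e-10) and PTPRS, a receptor for proteoglycans in neurons, at 17.3 and 16.1 CPM in sh_SRSF3, against 119 and 125 CPM in sh_control (log2 difference -2.87, SE 0.10, adjusted p = 1.58e-10). PTPRK, a homophilic adhesion phosphatase, was at 271 and 324 CPM in sh_SRSF3, against 85.9 and 112 CPM in sh_control (log2 difference 1.59, SE 0.13, adjusted p = 8.74e-08), and its relative PTPRG was at 175 and 188 CPM in sh_SRSF3, against 112 and 124 CPM in sh_control (log2 difference 0.62). In each of these 4 genes the libraries of a group lay much closer to each other than to those of the other group.

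Growth factor signalling through EGFR and ERK induces its own brakes, the DUSP phosphatases and the Sprouty proteins. Of 29 genes in this list, 16 fell and 6 rose (median -0.94), with several of these brakes among the falls. DUSP6, which dephosphorylates ERK, was at 28.1 and 26.3 CPM in sh_SRSF3, against 129 and 129.8 CPM in sh_control (log2 difference -2.25, SE 0.11, adjusted p = 1.68e-09). SPRY4 was at 30.1 and 32.6 CPM in sh_SRSF3, against 177 and 199 CPM in sh_control (log2 difference -2.58, SE 0.10, adjusted p = 2.7e-10), SPRY1 at 5.89 and 3.19 CPM in sh_SRSF3, against 48.6 and 52.2 CPM in sh_control (log2 difference -3.48) and DUSP4 at 176 and 159 CPM in sh_SRSF3, against 633 and 641 CPM in sh_control (log2 difference -1.93). The ERK-responsive factor ETV4 was at 12.4 and 11.5 CPM in sh_SRSF3, against 84.9 and 82.0 CPM in sh_control (log2 difference -2.80, SE 0.11, adjusted p = 2.5e-10) and the immediate early gene EGR1 at 7.09 and 5.62 CPM in sh_SRSF3, against 34.2 and 44.9 CPM in sh_control (log2 difference -2.64). Ligands went both ways: HBEGF was at 32.9 and 26.7 CPM in sh_SRSF3, against 125 and 115 CPM in sh_control (log2 difference -2.01) and AREG, amphiregulin, at 42.1 and 40.7 CPM in sh_SRSF3, against 13.5 and 18.5 CPM in sh_control (log2 difference 1.37). DUSP5 was at 138 and 134 CPM in sh_SRSF3, against 122 and 124 CPM in sh_control, and was not called. Among RAS genes, NRAS rose by 0.92, and HRAS, at 98.7 and 87.1 CPM in sh_SRSF3, against 118 and 90.5 CPM in sh_control, was not called.

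In the TGF-beta, BMP and inhibin list 12 of 26 rose and 9 fell, with a median of 0.18. The share that fell, 34.6%, was near the 34.4% of all genes tested, and 46.2% rose, against 32.5%. BMP4, a secreted morphogen, was at 561 and 485 CPM in sh_SRSF3, against 209 and 169 CPM in sh_control (log2 difference 1.47, SE 0.14, adjusted p = 5.66e-07), and FST, follistatin, which binds activins, was at 301 and 330.5 CPM in sh_SRSF3, against 98.9 and 97.5 CPM in sh_control (log2 difference 1.68, SE 0.11, adjusted p = 1.39e-08). GDF15, a cytokine induced by stress, was at 15.3 and 15.7 CPM in sh_SRSF3, against 2.42 and 3.24 CPM in sh_control (log2 difference 2.45, SE 0.24, adjusted p = 5.59e-07). The inhibitory SMAD6 was at 0.781 and 0.388 CPM in sh_SRSF3, against 7.24 and 8.11 CPM in sh_control (log2 difference -3.72) and NOG, the BMP antagonist noggin, at 11.6 and 7.23 CPM in sh_SRSF3, against 36.5 and 24.2 CPM in sh_control (log2 difference -1.69). ID1, a BMP target, was at 35.0 and 37.2 CPM in sh_SRSF3, against 92.4 and 108 CPM in sh_control (log2 difference -1.47), while ID2, at 4.42 and 5.76 CPM in sh_SRSF3, against 2.13 and 2.04 CPM in sh_control, rose by 1.29. The YAP and TAZ list of 16 genes holds targets and also the pathway's own genes YAP1, WWTR1, TEAD1, TEAD4, LATS1 and LATS2. Of these 16 genes, 7 rose (43.75%) and 5 fell (31.25%), and the median, 0.09, changed sign with upper-quartile scaling (-0.06). CTGF, a matricellular protein, was at 136 and 98.6 CPM in sh_SRSF3, against 573 and 472 CPM in sh_control (log2 difference -2.16, SE 0.14, adjusted p = 1.49e-08) and AMOTL1 at 41.1 and 38.4 CPM in sh_SRSF3, against 163 and 166 CPM in sh_control (log2 difference -2.05). The DNA-binding partners TEAD4 and TEAD1 rose by 1.51 and 0.89, WWTR1, which encodes TAZ, fell by 1.22, and YAP1, at 317 and 329 CPM in sh_SRSF3, against 304 and 329.8 CPM in sh_control, was not called.

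**Figure D4:**
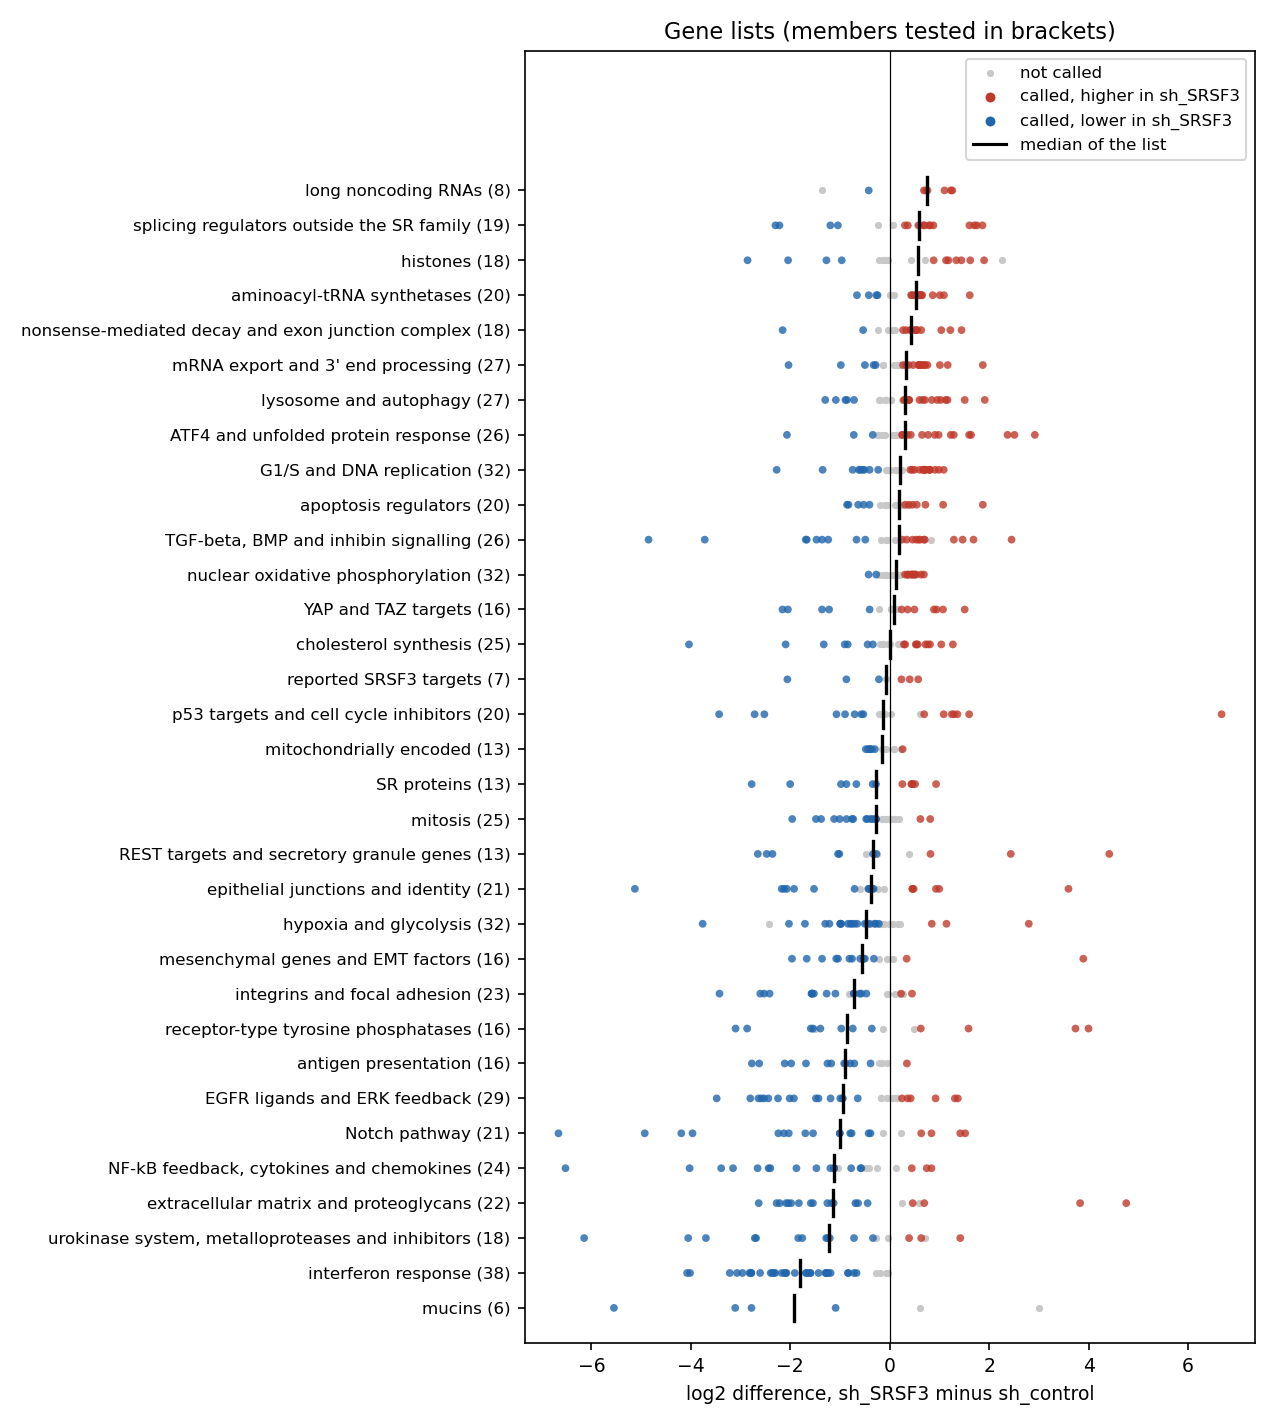
Log2 difference of sh_SRSF3 minus sh_control (x axis) for every tested member of each gene list other than the cell type markers, 1 point a gene, with called members in red (higher) or blue (lower), other members in grey and a black line at the list's median. The lists drawn run from mucins (-1.93) and interferon response (-1.80) at the bottom to splicing regulators (0.58) and long noncoding RNAs (0.75) at the top.

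Genes of entry into S phase and of DNA replication rose in 15 of 32 and fell in 9 (median 0.22). The share that rose, 46.9%, was near the 46.0% and 51.3% of genes in the 2 quintiles of highest level. PCNA, the sliding clamp of the replication fork, was at 384 and 374 CPM in sh_SRSF3, against 192 and 166 CPM in sh_control (log2 difference 1.09, SE 0.11, adjusted p = 1.46e-06), and MCM6 and MCM7, subunits of the replicative helicase, rose by 0.99 and 0.72. CCND1, the cyclin that drives cells out of G1, was at 171 and 145 CPM in sh_SRSF3, against 802 and 727 CPM in sh_control (log2 difference -2.27, SE 0.11, adjusted p = 1.48e-09). GINS2, part of the same helicase, was at 13.9 and 10.7 CPM in sh_SRSF3, against 34.7 and 28 CPM in sh_control (log2 difference -1.35), and RRM2, the ribonucleotide reductase subunit, at 166 and 130.1 CPM in sh_SRSF3, against 264 and 233 CPM in sh_control (log2 difference -0.75). Members of the MCM complex differed in direction: MCM5 fell by 0.59, and MCM3 and MCM4 were not called. Of 25 mitotic genes 14 fell and 2 rose (median -0.28). KIF20A, a kinesin of cytokinesis, was at 53.1 and 38.3 CPM in sh_SRSF3, against 171 and 185 CPM in sh_control (log2 difference -1.96, SE 0.14, adjusted p = 4.34e-08), BUB1, a checkpoint kinase, at 92.8 and 78.3 CPM in sh_SRSF3, against 225 and 253 CPM in sh_control (log2 difference -1.48, SE 0.11, adjusted p = 3.89e-08), and CCNB1, mitotic cyclin B, at 191 and 142 CPM in sh_SRSF3, against 341 and 329 CPM in sh_control (log2 difference -1.01). AURKB and ECT2 rose by 0.62 and 0.81. CDK1 was at 170.4 and 148 CPM in sh_SRSF3, against 167 and 187 CPM in sh_control, and was not called.

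Of 20 cyclin-dependent kinase inhibitors and p53 targets (of 21 listed), 7 rose (35.0%) and 8 fell (40.0%). These shares were near the 32.5% and 34.4% of all genes tested. CDKN1B, p27, was at 134 and 138 CPM in sh_SRSF3, against 52.1 and 53.8 CPM in sh_control (log2 difference 1.36, SE 0.09, adjusted p = 1.58e-08), whereas CDKN1A, p21, was at 24.0 and 22.1 CPM in sh_SRSF3, against 40.0 and 56.8 CPM in sh_control (log2 difference -1.07, SE 0.16, adjusted p = 4.81e-05) and CDKN1C, p57, at 0.481 and 0.609 CPM in sh_SRSF3, against 5.92 and 5.95 CPM in sh_control (log2 difference -3.43). GADD45A, induced by DNA damage and other stresses, was at 145 and 127 CPM in sh_SRSF3, against 58.7 and 52.4 CPM in sh_control (log2 difference 1.29). FAS, a death receptor, was at 0.751 and 1.19 CPM in sh_SRSF3, against 4.65 and 8.22 CPM in sh_control (log2 difference -2.72, SE 0.33, adjusted p = 4.81e-06). Of 20 apoptosis regulators (of 22 listed) 7 rose and 5 fell. BBC3, the BH3-only protein PUMA, was at 13.7 and 17.9 CPM in sh_SRSF3, against 4.04 and 4.59 CPM in sh_control (log2 difference 1.87, SE 0.20, adjusted p = 1.51e-06), and PMAIP1, NOXA, was at 103 and 97.6 CPM in sh_SRSF3, against 144 and 212 CPM in sh_control (log2 difference -0.83). MCL1, which restrains cell death, was at 325 and 332 CPM in sh_SRSF3, against 432 and 514 CPM in sh_control (log2 difference -0.52), and BCL2L1, at 913 and 799 CPM in sh_SRSF3, against 806 and 774 CPM in sh_control, was not called.

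ATF4 is the transcription factor of the integrated stress response, which cells mount to amino acid shortage and to misfolded protein in the endoplasmic reticulum. Of 26 genes of ATF4 and the unfolded protein response 15 rose and 3 fell (median 0.31). The share that rose was 57.7%, against 32.5% of all genes tested and 51.3% in the quintile of highest level. The summed CPM was 7589 and 8034 in sh_SRSF3, against 4233 and 4086 in sh_control. ATF4 itself was at 475 and 515 CPM in sh_SRSF3, against 262 and 266 CPM in sh_control (log2 difference 0.91, SE 0.09, adjusted p = 8.95e-07). DDIT3, the factor CHOP, was at 99.8 and 111 CPM in sh_SRSF3, against 13.0 and 14.8 CPM in sh_control (log2 difference 2.92, SE 0.11, adjusted p = 2.5e-10). PPP1R15A, which restores translation by dephosphorylating eIF2 alpha, was at 802 and 829 CPM in sh_SRSF3, against 262 and 263 CPM in sh_control (log2 difference 1.64, SE 0.09, adjusted p = 3.41e-09). The amino acid transporter genes SLC3A2 and SLC7A11, whose products form the cystine transporter, rose together. SLC3A2 was at 1416 and 1395 CPM in sh_SRSF3, against 262 and 232 CPM in sh_control (log2 difference 2.51, SE 0.10, adjusted p = 3.13e-10), and SLC7A11 at 322 and 292 CPM in sh_SRSF3, against 61.5 and 57.3 CPM in sh_control (log2 difference 2.37, SE 0.10, adjusted p = 3.3e-10). HSPA5, the chaperone BiP, was at 1804 and 2194 CPM in sh_SRSF3, against 977 and 1045 CPM in sh_control (log2 difference 0.98, SE 0.11, adjusted p = 3.29e-06), and its cochaperone gene DNAJB9 was at 40.8 and 56.0 CPM in sh_SRSF3, against 18.7 and 21 CPM in sh_control (log2 difference 1.29). Other members went against this direction or were not called. DDIT4, an inhibitor of mTORC1, was at 28 and 31.5 CPM in sh_SRSF3, against 125 and 125 CPM in sh_control (log2 difference -2.07, SE 0.11, adjusted p = 2.62e-09), and CHAC1, which degrades glutathione, at 6.43 and 8.06 CPM in sh_SRSF3, against 12.2 and 11.8 CPM in sh_control (log2 difference -0.72). ATF3 was at 22.8 and 26.5 CPM in sh_SRSF3, against 20.8 and 26.4 CPM in sh_control, XBP1 at 104 and 120.1 CPM in sh_SRSF3, against 88.5 and 104 CPM in sh_control and PSAT1 at 88.7 and 81.5 CPM in sh_SRSF3, against 103 and 86.9 CPM in sh_control, and none of these was called.

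The genes for aminoacyl-tRNA synthetases, which load tRNAs with amino acids and which ATF4 is known to induce, rose in 13 of 20 and fell in 4 (median 0.54). Thus 65.0% rose, against 32.5% of all genes tested and 51.3% in the quintile of highest level. AARS was at 464 and 469 CPM in sh_SRSF3, against 167 and 139 CPM in sh_control (log2 difference 1.61, SE 0.10, adjusted p = 1.04e-08) and YARS at 243 and 244 CPM in sh_SRSF3, against 119.7 and 109 CPM in sh_control (log2 difference 1.09). IARS, SARS and GARS rose by 1.01, 0.86 and 0.65. WARS, which interferon also induces, was at 100.1 and 107 CPM in sh_SRSF3, against 144 and 183 CPM in sh_control (log2 difference -0.66, SE 0.12, adjusted p = 0.000194). VARS and FARSA had differences of 0.00 and 0.00 and were not called.

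The element TGATGNAA, the letters of a composite C/EBP and ATF site, was present on either strand in 188 of 10714 promoters of tested genes (1.75%), and in those of ATF3, CHAC1, ASNS, SLC3A2 and HERPUD1 among the 25 promoters of the list: 3 of these genes rose, CHAC1 fell and ATF3 was not called. The bipartite endoplasmic reticulum stress element, CCAAT, any 9 bases and CCACG, was in 14 promoters (0.131%), among them HSPA5, HSP90B1, XBP1 and CRELD2. Of these 4 genes 2 rose and 0 fell. The element and its surroundings are shown in 3 genes that rose, with the element in capitals, or its reverse complement in HERPUD1. They lie on the minus strand for ASNS (chr7:97872449-97872496) and HSPA5 (chr9:125241371-125241429) and on the plus strand for HERPUD1 (chr16:56931946-56931993), in RefSeq GRCh38.p14 windows written 5' to 3' along the gene.
ASNS: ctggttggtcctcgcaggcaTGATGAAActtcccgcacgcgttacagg
HERPUD1: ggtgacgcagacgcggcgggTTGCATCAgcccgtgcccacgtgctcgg
HSPA5: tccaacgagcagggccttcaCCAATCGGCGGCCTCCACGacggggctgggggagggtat
ASNS, asparagine synthetase, was at 97.2 and 109.7 CPM in sh_SRSF3, against 46.8 and 41.6 CPM in sh_control (log2 difference 1.23, SE 0.10, adjusted p = 1.5e-07), and HERPUD1, of the degradation pathway for misfolded proteins, was at 47.4 and 55.9 CPM in sh_SRSF3, against 31.2 and 34.7 CPM in sh_control (log2 difference 0.65, SE 0.12, adjusted p = 0.000305). Genes with and without these letters were found among those that rose. Over all promoters, TGATGNAA was in 1.68% of genes that rose, 1.37% of genes that fell and 2.27% of genes not called. The endoplasmic reticulum stress element was in 7 genes that rose, 1 that fell and 6 not called.

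Glycolytic and hypoxia genes mostly fell: 20 of 32 were lower and 3 higher (median -0.48). HIF1A, the oxygen-regulated factor, was at 139.8 and 139 CPM in sh_SRSF3, against 301 and 345 CPM in sh_control (log2 difference -1.21, SE 0.10, adjusted p = 1.39e-07), HK2, hexokinase 2, at 31.2 and 22.9 CPM in sh_SRSF3, against 108 and 112 CPM in sh_control (log2 difference -2.03, SE 0.13, adjusted p = 8.2e-09) and LDHA, lactate dehydrogenase, at 1078 and 987 CPM in sh_SRSF3, against 1813 and 1683 CPM in sh_control (log2 difference -0.76, SE 0.11, adjusted p = 2.04e-05). The phosphofructokinase isoforms parted: PFKL was at 60.4 and 60.6 CPM in sh_SRSF3, against 162 and 136 CPM in sh_control (log2 difference -1.30), PFKP fell by 0.84, and PFKM was at 232 and 227 CPM in sh_SRSF3, against 107 and 102 CPM in sh_control (log2 difference 1.14). Glucose transporters parted too. SLC2A3 was at 323 and 385 CPM in sh_SRSF3, against 47.4 and 54.4 CPM in sh_control (log2 difference 2.80, SE 0.11, adjusted p = 3.13e-10), and SLC2A1, at 537 and 538 CPM in sh_SRSF3, against 523 and 501 CPM in sh_control, was not called. Of 27 lysosome and autophagy genes (of 28 listed), 15 rose and 5 fell (median 0.31). The share that rose was 55.6%, against 32.5% of all genes tested and 51.3% in the quintile of highest level. GABARAPL1, which coats autophagosomes, was at 91.3 and 114 CPM in sh_SRSF3, against 22 and 32.5 CPM in sh_control (log2 difference 1.91, SE 0.18, adjusted p = 3.89e-07), SQSTM1, the autophagy receptor p62, at 375 and 402 CPM in sh_SRSF3, against 181 and 202 CPM in sh_control (log2 difference 1.02), and ATG7, an enzyme of autophagosome formation, at 59.0 and 58.1 CPM in sh_SRSF3, against 20.7 and 20.5 CPM in sh_control (log2 difference 1.51). ULK1, the kinase that starts autophagy, was at 14.8 and 16.8 CPM in sh_SRSF3, against 36.2 and 41.7 CPM in sh_control (log2 difference -1.30, SE 0.12, adjusted p = 4.17e-07), and CTSD, cathepsin D, at 116 and 109 CPM in sh_SRSF3, against 219.8 and 256 CPM in sh_control (log2 difference -1.08). With upper-quartile scaling 10 of these genes rose and 8 fell.

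Cholesterol genes were divided, with 10 of 25 higher, 7 lower and a median of 0.01 whose sign changed with scaling. INSIG1, which retains the sterol sensor, was at 8.08 and 9.09 CPM in sh_SRSF3, against 36.9 and 36.4 CPM in sh_control (log2 difference -2.09, SE 0.18, adjusted p = 2.21e-07). Nuclear genes of oxidative phosphorylation shifted by small amounts, 11 of 32 higher and 2 lower, all below 2-fold (median 0.13, and -0.02 with upper-quartile scaling). Their share called higher, 34.4%, was near the 32.5% of all genes tested, and their share called lower was 6.25%. Mitochondrially encoded genes fell in 6 of 13 and rose in 1, also below 2-fold, with MT-CO1 at 7606 and 7528 CPM in sh_SRSF3, against 9032 and 10920.2 CPM in sh_control (log2 difference -0.40). Histone genes rose in 7 of 18 (38.9%) and fell in 4 (22.2%). Linker histones H1F0 and H1FX fell by 2.86 and 2.04, with H1F0 at 70.9 and 58.9 CPM in sh_SRSF3, against 495 and 447 CPM in sh_control (log2 difference -2.86, SE 0.11, adjusted p = 2.5e-10). HIST1H2AC, at 23.3 and 23.6 CPM in sh_SRSF3, against 5.6 and 6.99 CPM in sh_control, and HIST1H1C, at 28.1 and 30.2 CPM in sh_SRSF3, against 12.7 and 13.9 CPM in sh_control, rose by 1.90 and 1.13. Replication-dependent histone mRNAs lack a poly(A) tail, and the preparation selects RNA by a kit whose selection step the labels do not spell out, so their counts are uncertain. Of 8 long noncoding RNAs tested (of 21 listed), 6 rose and 1 fell. NEAT1, the scaffold of paraspeckles, was at 1009 and 918 CPM in sh_SRSF3, against 381 and 441 CPM in sh_control (log2 difference 1.23, SE 0.11, adjusted p = 2.09e-07), and MALAT1, of nuclear speckles, at 755 and 740.1 CPM in sh_SRSF3, against 541 and 359.7 CPM in sh_control (log2 difference 0.73). SNHG15 and MIR22HG rose by 1.26 and 1.10, and LINC00657 fell by 0.42.

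Most markers of the line were abundant. CD44, CAV1, AXL, VIM, MSN, KRT18 and FOSL1 were each above 200 CPM in all 4 libraries, while PLAUR, the urokinase receptor, was at 35.5 and 42.2 CPM in sh_SRSF3, against 118 and 161 CPM in sh_control (log2 difference -1.84). Of the luminal genes, PGR and FOXA1 stayed under 0.2 CPM, whereas KRT8, at 914 and 1034 CPM in sh_SRSF3, against 718 and 704 CPM in sh_control, and KRT19, at 223 and 218 CPM in sh_SRSF3, against 276 and 276 CPM in sh_control, were abundant in all 4 libraries. The summed level of the 8 line markers was 6537 and 6181 CPM in sh_SRSF3, against 7662 and 7575 CPM in sh_control. Lists of other cell types also moved. All 7 tested haematopoietic markers (of 10 listed) were lower, with a summed level of 66.7 and 65.8 CPM in sh_SRSF3, against 226 and 286 CPM in sh_control. The sum was made up mostly of CD68, at 36.5 and 38.3 CPM in sh_SRSF3, against 118 and 146 CPM in sh_control, and LAPTM5, at 22.7 and 19.9 CPM in sh_SRSF3, against 95.7 and 122 CPM in sh_control, both of lysosomes. The defining markers CD3E and CD53 were too low to be tested, and PTPRC was under 0.7 CPM in all 4 libraries. Without the second sh_control library 5 of the 7 were called lower. All 4 tested kidney packaging cell markers (of 8 listed) were lower as well, with a sum of 18.8 and 18.9 CPM in sh_SRSF3, against 71.4 and 71.4 CPM in sh_control. PAX2 and LHX1 were too low to be tested. Fibroblast markers went both ways, 2 of 7 higher and 2 lower, and DCN, FAP, THY1 and PDGFRA were too low to be tested. Of 11 luminal breast markers tested (of 14 listed) 2 rose and 5 fell, with MLPH, a melanophilin gene, at 14.2 and 11.5 CPM in sh_SRSF3, against 114 and 118 CPM in sh_control (log2 difference -3.18). Of 13 REST targets and secretory granule genes (of 22 listed) 3 rose and 7 fell (median -0.34), with SCG5, a chaperone of secretory granules, at 2.16 and 1.22 CPM in sh_SRSF3, against 9.36 and 11.8 CPM in sh_control (log2 difference -2.65), STMN3, a microtubule regulator, at 7.03 and 6.84 CPM in sh_SRSF3, against 39.7 and 37.4 CPM in sh_control (log2 difference -2.48), and SYP, synaptophysin, at 8.20 and 8.84 CPM in sh_SRSF3, against 1.32 and 1.83 CPM in sh_control (log2 difference 2.43). Neuronal markers rose in 3 of 6 (of 12 listed) and fell in 1, with a sum of 29.0 and 29.8 CPM in sh_SRSF3, against 13.3 and 17.7 CPM in sh_control, and STMN2, DCX and ELAVL4 were too low to be tested. The part of other cell types in these results was not tested. In a bulk sample, fewer cells of a type and less RNA per cell cannot be told apart.

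Set directly against the other knockdown, sh_SRSF3 differed from sh_TDP43 in 9842 genes (65.5%), of which 4801 were higher (32.0%) and 5041 lower (33.5%) in sh_SRSF3. With upper-quartile scaling, which shifted the median by -0.25, these were 3378 and 6451. Of the 5164 genes that fell against sh_control, 3828 (74.1%) were also lower than in sh_TDP43. A further 1089 (21.1%) were not called against sh_TDP43, and 247 (4.78%) were higher than in sh_TDP43. These counts share the sh_SRSF3 libraries and are given as a description. Of 32 replication genes, 27 were higher in sh_SRSF3 than in sh_TDP43 and 1 was lower, with a median of 1.04, while the median over all genes was -0.04. Against sh_control the median of these 32 genes was only 0.22, with 15 higher and 9 lower. MYBL2, a regulator of cell cycle genes, was at 225 and 224 CPM in sh_SRSF3, against 16.2 and 10.8 CPM in sh_TDP43 (log2 difference 4.06, SE 0.17, adjusted p = 4.08e-10). KPNB1, the import receptor importin beta, was at 1558 and 1539.8 CPM in sh_SRSF3, against 401 and 344 CPM in sh_TDP43 (log2 difference 2.06, SE 0.11, adjusted p = 2.61e-09). Against sh_control the log2 differences of MYBL2 and KPNB1 were smaller, at 0.80 and 0.93. SLC2A3 was at 323 and 385 CPM in sh_SRSF3, against 15.4 and 15.9 CPM in sh_TDP43 (log2 difference 4.50, SE 0.12, adjusted p = 4.19e-11). In the interferon list 34 of 38 genes were lower in sh_SRSF3 than in sh_TDP43 and 0 higher (median -1.59), with DDX60 at 12.4 and 19.2 CPM in sh_SRSF3, against 317 and 433 CPM in sh_TDP43 (log2 difference -4.57, SE 0.27, adjusted p = 6.82e-09). Stress genes were higher in sh_SRSF3 as well, 16 of 26, with 5 lower, and SLC7A11 was at 322 and 292 CPM in sh_SRSF3, against 32.4 and 30.9 CPM in sh_TDP43 (log2 difference 3.28, SE 0.10, adjusted p = 1.18e-10). TNS1 and MCAM, among the largest falls against sh_control, had differences of -3.98 and -4.23 against sh_TDP43. CLDN4 and COL13A1, by contrast, differed by 0.06 and -0.13, which the test did not call.

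Gene structure had a weak relation to the difference. Median log2 differences over quintiles of exon number, from few to many exons, were -0.11, -0.00, 0.02, -0.02 and -0.03. Over quintiles of the genomic span they were -0.18, -0.04, 0.02, 0.06 and 0.00. In the quintile of shortest span 24.7% were called higher and 36.7% lower, against 34.7% and 34.5% in that of longest span. Spearman's rho between span and the difference was 0.07. Genes of a single exon, which need no splicing, had a median of -0.22 over 713 genes, with 17.5% called higher and 31.3% called lower. Their median level was 1.17 CPM, against 24.1 CPM for genes of 2 or more exons, and the quintile of genes with the lowest level also had a negative median. Single genes scatter widely in every group, and genes are not independent replicates.

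Recovery in the Flag-SRSF3 RIP went with the direction. Recovery is the log2 ratio of FPKM in the RIP library to FPKM in the input library, after adding 0.1 to each, for the 8549 tested genes at 1 FPKM or more in the input. From the least to the most recovered quintile the median log2 differences were 0.24, 0.13, 0.06, -0.03 and -0.17. The share of genes called lower was 26.6% in the least and 44.1% in the most recovered quintile, and the share called higher 47.7% and 29.8%. With recovery in the Flag-TDP43 RIP in its place the medians ran the other way, from -0.09 to 0.12. Within quintiles of level, the most recovered quintile was lower than the least recovered by 0.63 among the genes of lowest level, and by 0.20 among those of highest level. Across the 8549 genes Spearman's rho between recovery and the log2 difference was -0.16. Across all tested genes rho between level and the difference was 0.23, with both taken from the same libraries. These are descriptions of 1 RIP and 1 input library, in cells that overexpress the tagged protein.

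**Figure D5:**
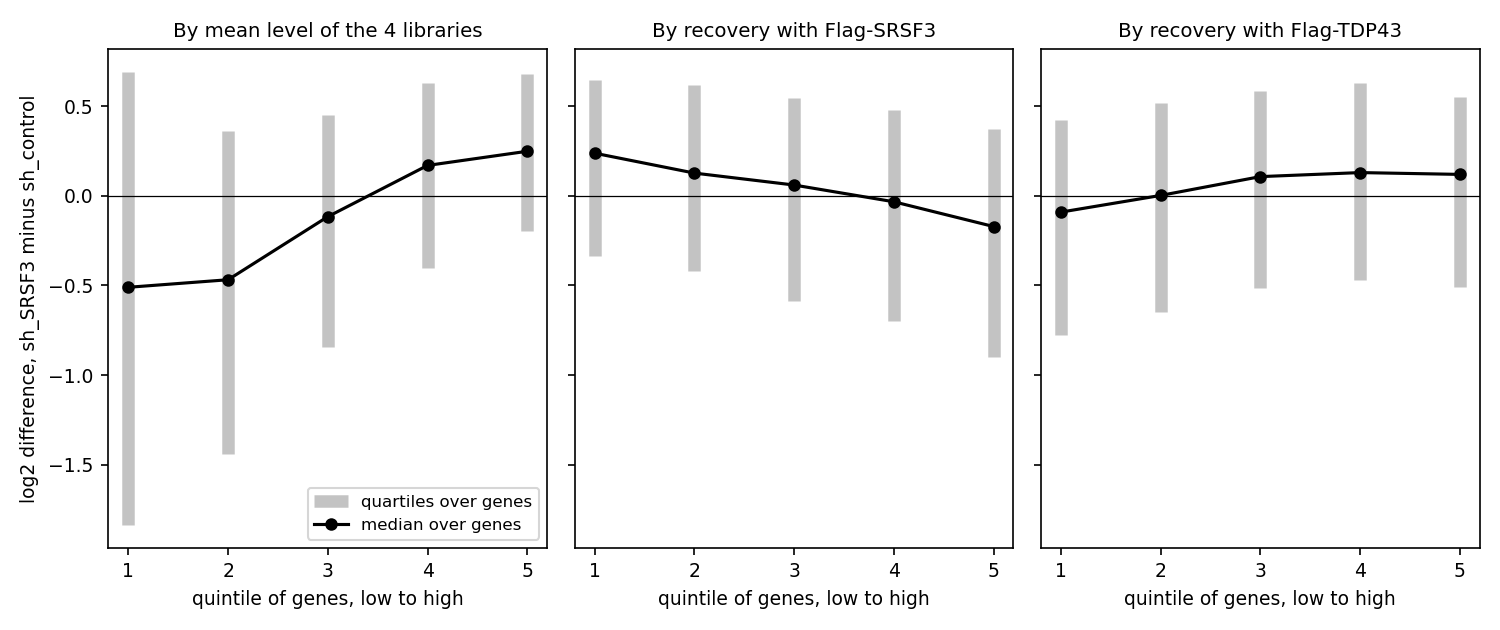
Median (points) and quartiles (grey bars) of the log2 difference, sh_SRSF3 minus sh_control, in quintiles of genes ordered by mean level (left), by recovery with Flag-SRSF3 (middle) and by recovery with Flag-TDP43 (right). Mean level comes from the same libraries as the difference, so part of the relation on the left is built in. The median goes up with level from -0.51 to 0.25, down with Flag-SRSF3 recovery from 0.24 to -0.17, and the quartiles overlap between all quintiles.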

How the data were processed

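Raw read counts per gene were deposited for sh_SRSF3, sh_control and sh_TDP43 libraries of MDA-MB231. Per the file headers, featureCounts v1.4.6-p5 counted reads with no strand or read-pair option on GRCh37 coordinates, leaving out reads that map to several places, so genes that share sequence with copies or with overlapping and antisense neighbours are uncertain. The submitters' processing notes name STAR 2.5.2a, HISAT2 2.0.5, StringTie 1.3.0 and Cufflinks without giving their roles. A further 2 sample columns matched no label and were not used. Deposited FPKM values for RIP and input, 1 library each, gave the recovery; a second deposited table holds RIP signal in a unit not given in the sources used here.

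Counts were scaled by TMM and tested with edgeR 4.0.16 (R 4.3.3, limma 3.58.1) by its quasi-likelihood F-test, with all 6 hairpin libraries in 1 fit and the filterByExpr filter. The p-values were adjusted by Benjamini-Hochberg over all genes tested, with calls at adjusted p under 0.05. SE is the log2 difference divided by the root of F. Counted reads ranged over 34457445 to 38326930 per library. Intervals of count ratios and floors cover counting error only. An exact permutation test of 2 against 2 libraries cannot reach p = 0.05. Scripts were tested on simulated data in which few genes changed, as many up as down. That test does not cover data in which most genes differ or large falls outnumber large rises. Alternatives were upper-quartile, RLE and library-total scaling, DESeq2 1.42.0, other count filters, the 4 libraries alone, a replicate block and leaving out each library.

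Genes were named by rule: the SR genes; the 15 largest rises and the 15 largest falls among called, non-overlapping genes at 20 CPM or more in the higher group; the 10 largest gains and losses of CPM; up to 4 called and 2 uncalled members per list; and 8 genes in each direction among those near 0 in a group and those set against sh_TDP43. The other genes were named after their values were seen. The 39 gene lists were chosen with earlier results of these data known. Promoter windows came from RefSeq tables of GRCh38.p14. Some genes that the rule or the lists hold are not reported here.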

Additional observations from a re-analysis of the deposited data

How the results depend on the processing

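Against sh_control, the count of 10045 called genes ranged over 8749 to 9796 when each library was left out in turn, that of 4766 genes called at 2-fold or more over 4413 to 4722, and the 9842 genes called against sh_TDP43 over 8268 to 10165. DESeq2 called 9691 and 9451 genes in these comparisons. No gene called in both the reported fit and any alternative changed sign. The share of called genes that rose in sh_SRSF3 against sh_control, 48.6%, was 39.7% with upper-quartile scaling and 42.9% with library totals. Against sh_TDP43 it was 48.8%, and 34.4% and 37.3% with those scalings. A replicate block gave 10565 and 10413 calls, against 10045 and 9842 without it; deviations of same-numbered libraries correlated at 0.222, 0.168 and 0.23, over 2 numbers only, and the labels do not say that the numbers pair the libraries.

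The difference between the last and first bin of exon number was 0.08, and 0.199 in deciles and 0.0179 at 10 CPM or more. That of exonic length was 0.03, and 0.0588 in deciles and -0.015 at 10 CPM or more. That of span was 0.18, and 0.194 in deciles and 0.0784 at 10 CPM or more. The difference between the most and least recovered quintiles was -0.41 with Flag-SRSF3, and -0.35 at 5 FPKM or more in the input, 0.21 with Flag-TDP43 in its place, and -0.49 in the second signal table, which was added after the data were seen. The cause of these shifts was not tested. Of the comparisons of list counts across alternatives 1046 stayed within 1.5 times and 46 did not, most of them counts under 6. Among these, lower histone genes numbered 7, lower ATF4 and unfolded protein response genes 5, and lower genes of oxidative phosphorylation 4 with upper-quartile scaling, against 4, 3 and 2 as reported. The fibroblast marker median was -0.42, and 0.17 without the first sh_SRSF3 library and 0.69 without the second sh_control library. With 2 libraries a group the spread is poorly known, and genes near 0 counts rest on counting error alone.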

Other observations

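C2CD3, a centriole gene on chromosome 11 (73723759 to 73882255, GRCh37), was at 588 and 629.9 CPM in sh_SRSF3, against 72.7 and 73.8 CPM in sh_control (log2 difference 3.06, SE 0.10, adjusted p = 1.33e-10, edgeR). Its nearest neighbours UCP3 and PPME1 were higher as well. UCP3, a mitochondrial carrier gene that ends 3279 bases away, was at 30.0 and 32.4 CPM in sh_SRSF3, against 1.99 and 2.17 CPM in sh_control (log2 difference 3.90). PPME1, a phosphatase methylesterase gene that overlaps the end of C2CD3 on the coordinates, was at 759 and 813 CPM in sh_SRSF3, against 139 and 143 CPM in sh_control (log2 difference 2.47). Reads in the overlap of C2CD3 and PPME1, and in that of PPME1 and P4HA3, cannot be told apart without strand. P4HA3 was low, at 2.04 and 2.47 CPM in sh_SRSF3, against 1.08 and 0.783 CPM in sh_control. Farther out, P4HA3, PAAF1 and COA4 were higher by 1.28, 0.77 and 0.72 and were called, whereas UCP2, at 0.32 (adjusted p = 0.0556), PGM2L1, at 0.31 (adjusted p = 0.0514), DNAJB13 and LIPT2 were not. KCNE3, at 0 CPM in both sh_SRSF3 libraries, against 0.323 and 0.574 CPM in sh_control, was called in the other direction (adjusted p = 0.000928). In sh_TDP43 the differences from sh_control were 0.73 for C2CD3, 2.51 for UCP3 and 1.27 for PPME1. C2CD3 and its neighbours were looked at together after their values were seen.

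Base composition of the promoter window had a weak relation to direction, seen mostly in the highest quintile. From the lowest to the highest quintile of G and C share, the median log2 differences were 0.00, 0.10, 0.14, -0.03 and -0.29, over 10715 genes with a window, and 47.0% of the genes in the highest quintile were called lower. Across genes Spearman's rho was -0.10, a description without a test. The G and C share was also related to Flag-SRSF3 recovery, with rho of 0.13 over 6658 genes.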
